A study of Homo sapiens with 12 samples.

Results

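MX1 and MX2 are neighbouring human genes that encode interferon-induced antiviral GTPases, and their mRNA levels were followed here in every library of an RNA sequencing study of EZH2 inhibition in lymphoma cells. They are 2 of the 63129 gene rows of the deposited table and 2 of the 18731 genes tested, chosen by gene symbol, and each symbol has 1 row. The 3 established cell lines used, KARPAS-422, Pfeiffer and RL, derive from diffuse large B cell lymphomas of the germinal centre type and all have an EZH2 that is mutated in its SET domain and overactive. EZH2 is the enzyme within the Polycomb complex PRC2 that methylates lysine 27 of histone H3. The labels describe KARPAS-422 and Pfeiffer as lines whose phenotype responds to EZH2 inhibition, and RL as one that is insensitive. In KARPAS-422 the treatments were 0.1% DMSO (3 libraries) or the EZH2 inhibitor CPI-169 at 1.5 µM (3 libraries). Pfeiffer cells received 0.1% DMSO (2 libraries) or the EZH2 inhibitor GSK343 at 1.5 µM (2 libraries), and RL cells received 0.1% DMSO only (2 libraries). All cells were harvested after 4 days. The comparisons ask how MX1 and MX2 changed with inhibition in each responsive line and how RL differed from both lines at baseline. Whether the replicates of a group are separate cultures is not in the labels, and all p-values refer to the spread between these libraries alone, which may be technical. Each line was treated with its own compound, so line and compound cannot be told apart.

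Type I interferons bind the receptor made of IFNAR1 and IFNAR2, whose kinases JAK1 and TYK2 phosphorylate STAT transcription factors. These join IRF9 to form ISGF3, which binds the interferon-stimulated response element (ISRE) in the promoters of interferon-stimulated genes. MX1 and MX2 are classical targets of that complex and are often read as markers of interferon signalling. Both proteins belong to the dynamin superfamily of large GTPases, which assemble into rings or helices. MX1 encodes MxA, a cytoplasmic protein known for restricting influenza viruses and other RNA viruses. MX2 encodes MxB, which is found at nuclear pores and is known for restricting HIV-1 and herpesviruses.

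In the deposited table (hg19, chromosome 21) MX2 (ENSG00000183486) runs from 42733869 to 42781317 and MX1 (ENSG00000157601) from 42792230 to 42831141. The gene models span 47449 and 38912 bases and are separated by 10912 bases. The row AP001610.5 (ENSG00000228318), from 42813320 to 42814669, lies inside the MX1 model and did not exceed 0.932 FPKM in any library. Whether reads were assigned by strand is not given in the sources used here, so reads of MX1 and of that row cannot be told apart where they overlap.

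The sequences around the annotated starts of MX1 are shown because the element that ISGF3 binds can be read in them. RefSeq's promoter table (GRCh38.p14, a later build than that of the files) matched 1 of the 2 genes, MX1, with 3 windows, all on the plus strand, each from 250 bases before to 50 bases after a start. Capitals mark matches to the ISRE core, GAAA, then any 2 bases, then GAAA, on either strand.
MX1 window 1, chr21:41420308-41420607: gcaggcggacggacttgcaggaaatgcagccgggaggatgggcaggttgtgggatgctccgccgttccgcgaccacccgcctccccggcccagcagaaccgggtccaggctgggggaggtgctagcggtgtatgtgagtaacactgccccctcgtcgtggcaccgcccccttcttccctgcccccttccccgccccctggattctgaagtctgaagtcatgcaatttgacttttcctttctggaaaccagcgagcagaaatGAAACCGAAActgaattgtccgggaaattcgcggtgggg
MX1 window 2, chr21:41425989-41426288: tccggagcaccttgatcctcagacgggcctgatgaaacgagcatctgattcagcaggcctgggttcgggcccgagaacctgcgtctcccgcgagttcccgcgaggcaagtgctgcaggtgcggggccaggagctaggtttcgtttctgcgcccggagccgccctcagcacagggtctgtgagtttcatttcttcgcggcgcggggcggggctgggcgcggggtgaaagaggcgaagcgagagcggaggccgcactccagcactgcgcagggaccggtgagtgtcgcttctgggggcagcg
MX1 window 3, chr21:41431800-41432099: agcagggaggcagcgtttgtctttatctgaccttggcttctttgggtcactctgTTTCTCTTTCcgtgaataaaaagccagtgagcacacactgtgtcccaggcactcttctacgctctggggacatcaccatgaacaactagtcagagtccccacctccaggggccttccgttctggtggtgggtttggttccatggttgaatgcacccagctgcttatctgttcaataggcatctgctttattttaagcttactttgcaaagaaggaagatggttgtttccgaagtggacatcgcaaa
Window 1 holds 1 match, GAAACCGAAA on the plus strand, whose first base is base 12 counted from the annotated start as 1. Window 2 holds 0 matches and has 30 CpG pairs, against 20 in window 1 and 6 in window 3. It does hold tttcgtttc and tttcatttc, which on the minus strand are GAAA repeats 1 base apart. The pattern searched does not cover that spacing, so 0 matches does not mean that window 2 lacks such an element. Window 3 holds 1 match on the minus strand, read as TTTCTCTTTC on the printed strand from position -196. It overlaps a match to GAS, the interferon gamma-activated element (TTC, then any 3 bases, then GAA, both strands searched), TTCCGTGAA, which starts at position -189. The ISRE core occurs in 3.57% of the 35116 promoter windows of the table and in 39 of 68 windows of the other interferon-stimulated genes (57.4%), of which 51 of 62 matched by symbol. GAS letters occur in 7.66% of all windows and in 23.5% of those 68. A match is a description of the letters, not evidence of binding.

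Across the 12 libraries the FPKM sums ran from 369524 to 628281, and the depth relative to the first DMSO library of each line from 0.647 to 1.33. FPKM values carry no read counts, and the depth itself is unknown. Replicates correlated at r of 0.993 to 0.997 over the tested genes, except for the GSK343 libraries, at r = 0.970. Pfeiffer results are therefore given also without each GSK343 library where that bears on a call or moves a value. All 8 B cell markers listed averaged at least 1 FPKM in every group. Of other cell types, CD8A reached 297 to 412 FPKM in Pfeiffer and CD3G 34.0 to 55.2 FPKM in KARPAS-422, while the T and NK cell markers KLRD1 and, in both KARPAS-422 groups and in Pfeiffer with DMSO, CD2 are listed at 0. The 9 T and NK cell markers summed to 35.6 to 37.3 FPKM with DMSO and 54.0 to 60.6 FPKM with CPI-169 in KARPAS-422, and to 411.5 to 413 FPKM with DMSO and 298 to 397 FPKM with GSK343 in Pfeiffer. The 7 myeloid markers summed to 0.448 to 1.26 FPKM with DMSO and 3.34 to 4.41 FPKM with CPI-169, mostly CD68. They summed to 0.513 to 0.690 FPKM with DMSO and 0.652 to 1.04 FPKM with GSK343. The 7 epithelial and stromal markers found summed to at most 1.21 FPKM in KARPAS-422 and to 140 to 141 FPKM with DMSO and 57.4 to 79.3 FPKM with GSK343 in Pfeiffer, mostly EPCAM. The part of these markers in the MX1 and MX2 results was not tested.

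At baseline MX1 was an abundant transcript in KARPAS-422 and a moderate one in the other lines. With DMSO, KARPAS-422 libraries had 142, 154 and 143 FPKM of MX1 (146 ± 6.60, SD, n = 3). With CPI-169 they had 433, 426 and 441 FPKM (434 ± 7.65, n = 3), higher than 99.7% to 99.8% of the tested genes of each library. The groups did not overlap. Pfeiffer libraries had 21.7 and 22.1 FPKM with DMSO, and with GSK343 192 FPKM in replicate 1 and 28.5 FPKM in replicate 2. Both treated libraries lay above both DMSO libraries, but the 2 treated libraries were far from each other. RL libraries had 17.5 and 11.5 FPKM, the lowest MX1 values of the study.

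MX2 followed another order. KARPAS-422 libraries with DMSO had 17.6, 18.3 and 17.5 FPKM (17.8 ± 0.459, SD, n = 3), and those with CPI-169 had 121, 114 and 131 FPKM (122 ± 8.46, n = 3). The groups did not overlap, and the treated libraries were the highest of the study. Pfeiffer libraries had 31.8 and 28.1 FPKM with DMSO and 34.9 and 38.2 FPKM with GSK343, so that both treated libraries lay above both DMSO libraries by a small margin. RL libraries had 0.540 and 0.786 FPKM, below every other library. In RL, 19.8% and 23.2% of the tested genes lay below MX2, against 67.9% to 97.5% in the other lines.

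**Figure D1:**
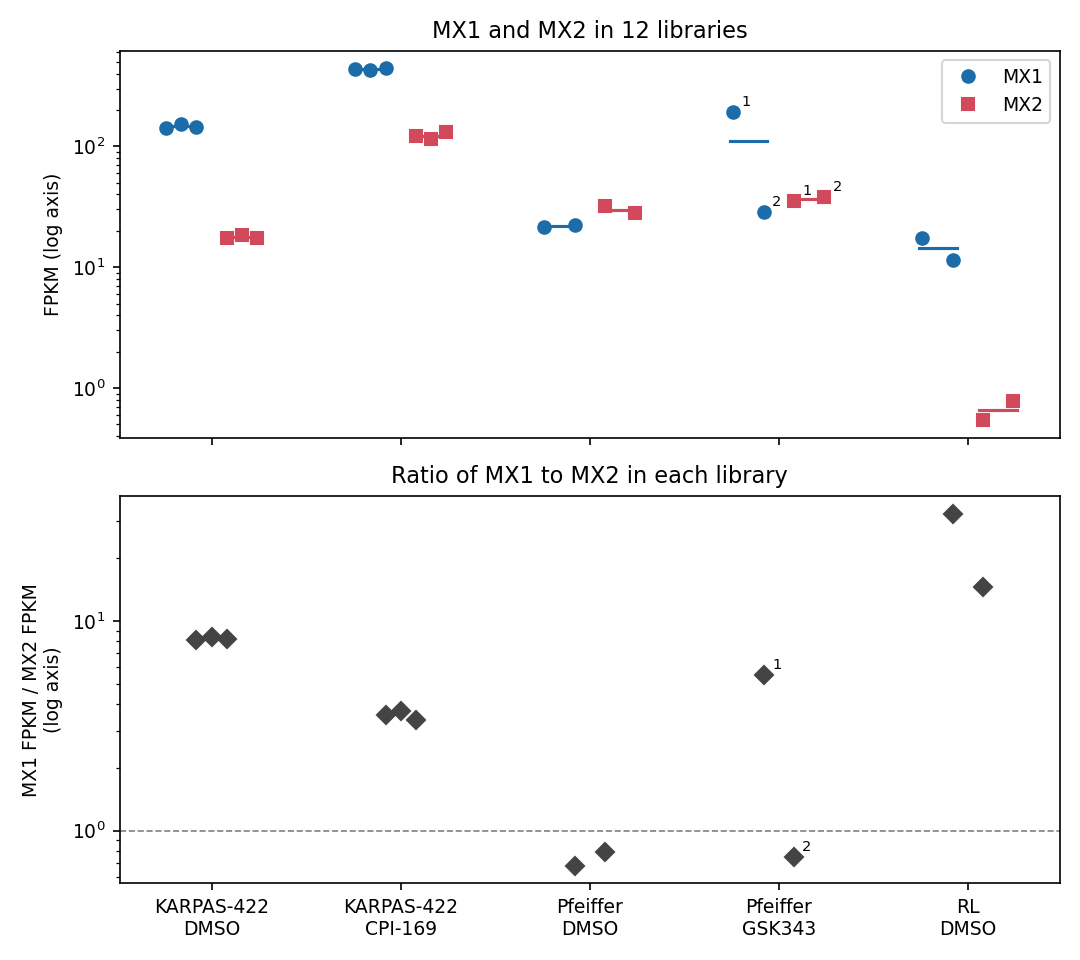
The upper panel plots the FPKM of MX1 (circles) and MX2 (squares) in each of the 12 libraries on a log axis, with a bar at each group mean and the replicate number beside the GSK343 libraries. The lower panel plots the ratio of MX1 to MX2 FPKM in each library on a log axis with a dashed line at 1. MX1 lay at 192 and 28.5 FPKM in the GSK343 libraries, and MX2 lay under 1 FPKM in RL only.

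With CPI-169 both genes rose in KARPAS-422, MX2 by more than MX1. The mean of MX2 was 6.86-fold that of DMSO and the mean of MX1 2.96-fold. On the log2(FPKM + 1) scale the difference was 2.71 for MX2 (SE 0.0838, 95% CI 2.52 to 2.89, adjusted p = 8.06e-09 by limma and the Benjamini-Hochberg method over all genes tested, as for every adjusted p here) and 1.56 for MX1 (SE 0.498, 95% CI 0.46 to 2.66, adjusted p = 0.0213). Each of the 3 treated libraries lay above the DMSO mean, by 2.61 to 2.81 for MX2 and 1.53 to 1.59 for MX1. Both are read against a background in which 54.2% of all tested genes were called, 26.9% higher and 27.3% lower, and in which all treated libraries lay above all DMSO libraries for 33.2% of genes. By size of increase MX2 ranked 47th and MX1 357th of the 18731 genes. In bulk RNA, more cells that express a gene and more RNA per cell cannot be told apart.

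The wide interval of MX1 reflects the spread that the fit pools over all 5 groups, to which the GSK343 libraries contribute. With KARPAS-422 fitted alone its standard error was 0.0598 and its adjusted p 3.50e-05 (limma), and without GSK343 replicate 1 or 2 of Pfeiffer the standard error was 0.120 in both fits and the adjusted p 3.54e-06 and 3.63e-06. In the other direction, the call was lost at an adjusted p of 0.0516 to 0.0538 (limma) without DMSO replicate 1 or 3 or CPI-169 replicate 1 or 3. Without the filter on low values its adjusted p was 0.0745.

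With GSK343 neither gene passed the test in Pfeiffer. MX1 averaged 5.03-fold its DMSO mean, with a log2 difference of 1.72 (SE 0.610, 95% CI 0.37 to 3.07, limma, adjusted p = 0.0564). MX2 averaged 1.22-fold its DMSO mean, with a log2 difference of 0.28 (SE 0.103, 95% CI 0.05 to 0.51, adjusted p = 0.0629). Of all tested genes, 29.5% were called with GSK343, 12% higher and 17.5% lower, and all treated libraries lay above all DMSO libraries for 23.9% of genes. These calls, and every call with GSK343 given here, rest on the spread shared with the other lines: with Pfeiffer fitted alone, limma called 0 of the 18731 genes (4634 at an unadjusted p under 0.05, lowest adjusted p 0.0516). MX1 had the 36th largest increase of 18731 genes and MX2 the 3639th.

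The GSK343 libraries gave different values for MX1 and similar ones for MX2. Replicate 1 had 8.76 times the DMSO mean of MX1 and replicate 2 had 1.30 times. Without replicate 2 the MX1 difference was 3.07 (limma, adjusted p = 4.63e-06), and without replicate 1 it was 0.37 (adjusted p = 0.125). These fits give the single GSK343 library the spread of the other groups. For MX2 the difference was 0.22 without replicate 2 (adjusted p = 0.181, limma) and 0.34 without replicate 1, where it passed (adjusted p = 0.0342). It also passed after median scaling (0.33, adjusted p = 0.0259) and quantile normalization (0.41, adjusted p = 0.00864).

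Most of the 59 other interferon-stimulated genes tested were, like MX1, higher in GSK343 replicate 1 than in replicate 2, though mostly by less. They were 54 of 59 (91.5%), against 41.6% of all genes tested. Replicate 1 exceeded replicate 2 by 2.71 for MX1 on the log2 scale and by a median of 0.91 for those genes, and 26 of them (44.1%, against 1.78% of all genes tested) exceeded by more than 1 and 0 fell short by more than 1. Only 6 had a larger gap than MX1, all named here after their values were seen: IFI27, IFI44, ISG15, IFIT1, OAS2 and IFI44L. MX2 had a gap of -0.12, and PSMB8, an immunoproteasome subunit gene, was the 1 gene of the list with a lower one. The list had a median difference from the DMSO mean of 1.30 in replicate 1 and 0.18 in replicate 2. MX1 stood at 3.07 and 0.37, and MX2 at 0.22 and 0.34, above the list median in replicate 2 and below it in replicate 1. Over all tested genes the median gap was -0.07. What set the libraries apart was not tested.

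**Figure D2:**
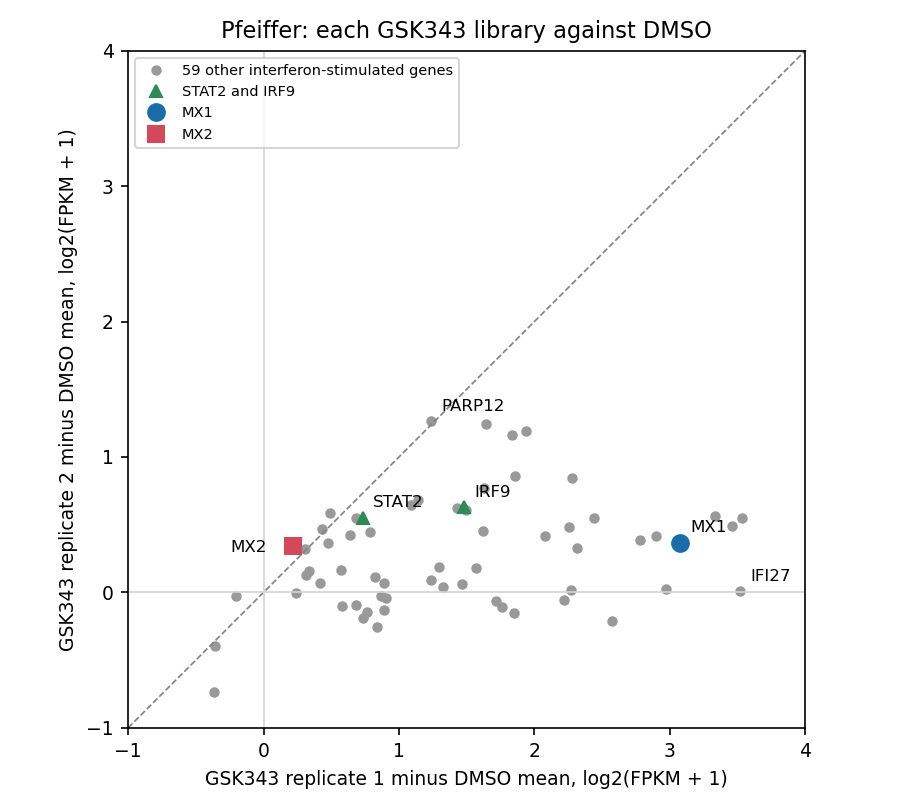
Each point is a gene, with its log2(FPKM + 1) difference from the Pfeiffer DMSO mean in GSK343 replicate 1 on the horizontal axis and in replicate 2 on the vertical axis; the dashed line marks equal values. Grey circles are the 59 other interferon-stimulated genes and green triangles STAT2 and IRF9. MX1 lies far to the right, at 3.07 and 0.37, and MX2 beside the line, at 0.22 and 0.34.

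The difference between the inhibitor effects was tested as an interaction, in which 42.6% of all genes were called. The effect of CPI-169 in KARPAS-422 exceeded that of GSK343 in Pfeiffer by 2.43 for MX2 (SE 0.132, limma, adjusted p = 1.17e-06). For MX1 the difference was -0.16 (SE 0.788, 95% CI -1.91 to 1.58, adjusted p = 0.886), an interval wide enough to hold a difference of more than 1 in either direction. It was 1.19 without GSK343 replicate 1 (adjusted p = 0.00146, limma) and -1.51 without replicate 2 (adjusted p = 4.53e-04), so its sign depended on the library kept. For MX2 the same exclusions gave 2.37 and 2.49.

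At baseline the lines differed in both genes, and not in the same direction. MX1 was 6.69-fold higher in KARPAS-422 than in Pfeiffer (log2 difference 2.69, SE 0.557, limma, adjusted p = 9.42e-04), whereas MX2 was 1.68-fold lower in KARPAS-422 (-0.72, SE 0.0937, adjusted p = 2.76e-05). Between these lines 83% of all genes were called. RL was lower than KARPAS-422 in both, with a log2 difference of -3.28 for MX1 (adjusted p = 3.26e-04, limma) and -3.50 for MX2 (adjusted p = 1.92e-10), where 66.8% of genes were called. The means of KARPAS-422 were 10.1-fold those of RL for MX1 and 26.8-fold for MX2.

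Against Pfeiffer, RL differed in MX2 and not detectably in MX1 by the fit of all groups. The mean of MX2 in Pfeiffer was 45.2-fold that in RL (log2 difference -4.22, SE 0.103, limma, adjusted p = 7.94e-11). The log2(FPKM + 1) scale understates a change at such low levels, and with a pseudocount of 0.1 the MX2 difference was -5.32. For MX1 the RL libraries lay below both Pfeiffer DMSO libraries, with a difference of -0.59 (SE 0.610, 95% CI -1.94 to 0.76, adjusted p = 0.399, limma). That difference passed with the 2 groups fitted alone (adjusted p = 0.0385, limma) and without GSK343 replicate 1 or 2, which are in neither group (0.00436 and 0.00445). Of all genes 74.3% were called between these lines. In the order of MX1 levels, RL and Pfeiffer with DMSO are thus neighbours whose difference did not pass the fit of all groups. The difference between Pfeiffer with DMSO and with GSK343 did not pass it in either gene, although the libraries did not overlap.

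**Figure D3:**
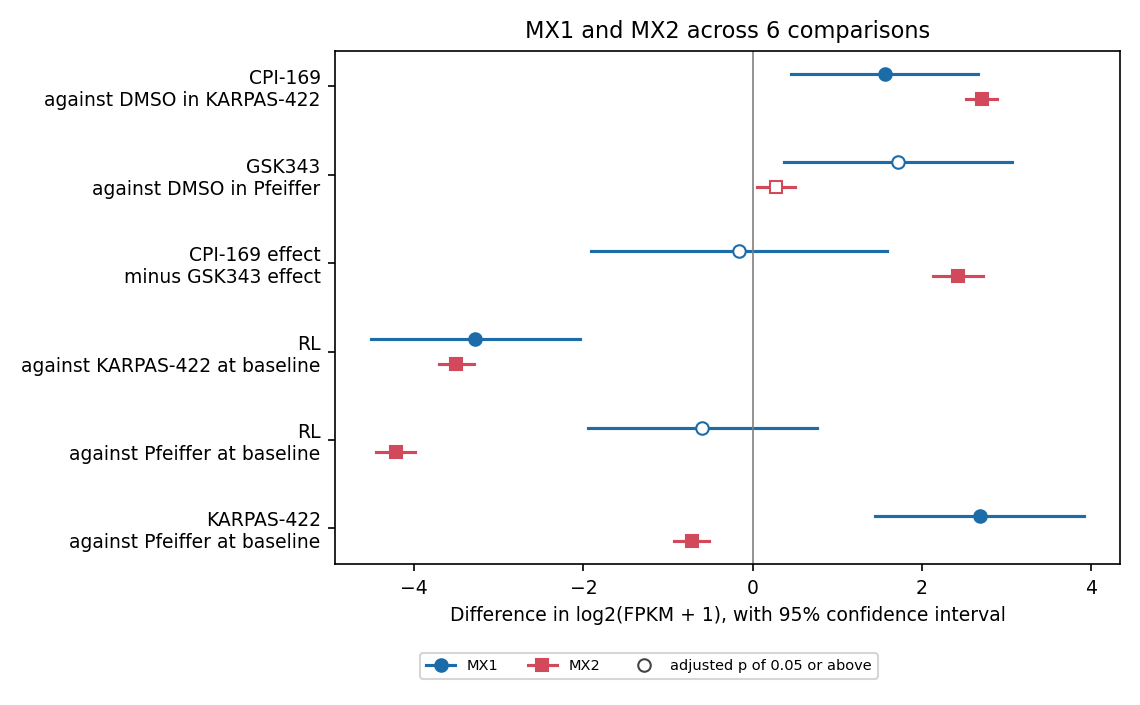
Points give the difference in log2(FPKM + 1) of MX1 (circles) and MX2 (squares) in 6 comparisons, bars the 95% confidence intervals of the limma fit, and open symbols an adjusted p of 0.05 or above. Intervals of MX1 are wider throughout, and in RL against Pfeiffer MX2 stands at -4.22 and MX1 at -0.59.

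The balance between the genes differed between lines and with treatment. MX1 was 8.09, 8.41 and 8.18 times MX2 in KARPAS-422 with DMSO and 3.58, 3.74 and 3.37 times with CPI-169, with no overlap. The log2 ratio fell by 1.15 (exact two-sided permutation test, p = 0.1, the smallest that 3 against 3 libraries allow). In Pfeiffer the ratio was 0.682 and 0.787 with DMSO, where MX2 was the more abundant gene per length. With GSK343 it was 5.49 in replicate 1 and 0.748 in replicate 2 (log2 difference 1.44, exact two-sided permutation test, p = 0.667, where 0.333 is the smallest that 2 against 2 libraries allow). Without replicate 1 that log2 difference was 0.02 and without replicate 2 it was 2.86. RL had 32.5 and 14.6 times as much MX1 as MX2, ratios that rest on MX2 values under 1 FPKM.

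With CPI-169, 7 of 12 interferon signalling genes rose, 3 fell and 2 did not pass, where 26.9% of all genes rose and 27.3% fell. The genes that fell were all receptor chains. IFNAR2, a chain of the type I receptor, rose from 12.5 ± 0.831 to 16.9 ± 0.846 FPKM (log2 difference 0.41, limma, adjusted p = 0.00308). The partner chain IFNAR1 fell from 25.0 ± 1.26 to 15.4 ± 1.11 FPKM (-0.66, limma, adjusted p = 4.72e-05). IL10RB, shared by the interferon lambda and interleukin 10 receptors, and IFNGR1, the ligand-binding chain for interferon gamma, fell by 0.82 and 0.87. IFNLR1, the specific chain of the lambda receptor, rose from 4.87 ± 0.227 to 7.79 ± 0.514 FPKM. IFNGR2 averaged 23.2 FPKM with DMSO and 22.4 FPKM with CPI-169 and did not pass.

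The kinases and ISGF3 subunits moved mostly upwards with CPI-169. TYK2 rose from 38.4 ± 1.41 to 60.7 ± 1.30 FPKM and JAK1 from 8.82 ± 0.636 to 15.6 ± 0.665 FPKM, while JAK2, which serves the interferon gamma receptor, averaged 4.52 and 4.88 FPKM and did not pass. STAT2 had the largest change of the list, from 32.4 ± 1.80 to 122.7 ± 4.02 FPKM (log2 difference 1.89, limma, adjusted p = 2.13e-08). IRF9 rose from 83.8 ± 8.51 to 139 ± 6.26 FPKM (0.73, adjusted p = 0.00438). Beside these, MX2 had a larger increase than any of the 12 and MX1 a larger one than all but STAT2.

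With GSK343, 5 of the 12 signalling genes rose, 1 fell and 6 did not pass, where 12% of all genes rose and 17.5% fell. STAT2 went from 26.1 ± 0.319 FPKM (SD, n = 2) to 44.0 and 38.7 FPKM and IRF9 from 19.0 ± 1.06 to 54.7 and 29.9 FPKM, and both calls held without any one of the 12 libraries (highest adjusted p of 0.0046 and 0.0384, limma). IL10RB rose from 2.59 ± 0.0779 to 4.45 and 3.65 FPKM. Without GSK343 replicate 1 and 2 in turn, the log2 difference was 0.55 and 0.73 for STAT2, 0.63 and 1.48 for IRF9 and 0.37 and 0.60 for IL10RB. TYK2 (0.38), JAK2 (0.44) and IFNGR2 (-0.31) also passed. TYK2 was lost without DMSO replicate 1 or 2 of Pfeiffer, JAK2 without either of these or GSK343 replicate 1, and IFNGR2 without any of 10 libraries, with adjusted p up to 0.0545, 0.127 and 0.172 (limma). IFNAR1, IFNAR2, IFNGR1, IFNLR1 and JAK1 had differences from -0.17 to 0.26 and did not pass. JAK1 passed without GSK343 replicate 1 (0.53, limma adjusted p = 0.00546; 0.00 without replicate 2), and IFNAR1 without replicate 2 (-0.28, adjusted p = 0.0499; -0.07 without replicate 1).

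No interferon gene reached 1 FPKM. All 21 interferon genes of the list found in the table (another 3 of its 24 names did not match) stayed below the filter, the highest value in any library being 0.508 FPKM with CPI-169. Their summed level was 0.174 to 0.300 FPKM with DMSO and 0.388 to 0.830 FPKM with CPI-169 in KARPAS-422. In Pfeiffer it was 0.282 to 0.443 FPKM with DMSO and 0.234 to 0.436 FPKM with GSK343, and in RL 0.148 to 0.163 FPKM. Many are listed at 0, which in this table can be a failed estimate, since all 37 mitochondrial genes are listed at 0 too.

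Of the other interferon-stimulated genes, 62 were listed and 59 tested. With CPI-169, 51 of the 59 were called higher, 0 lower and 8 neither, where 26.9% of all genes were called higher and 27.3% lower. Their median difference was 1.49, against 0.01 for all genes tested. Beside their changes MX2 ranked 11th and MX1 29th of 60. RSAD2, which encodes the antiviral enzyme viperin, rose from 5.20 ± 0.399 to 74.2 ± 3.98 FPKM, IFI35 from 8.86 ± 0.196 to 79.6 ± 7.82 FPKM and the ADP-ribosyltransferase gene PARP12 from 26.3 ± 1.37 to 75.8 ± 2.62 FPKM. With GSK343, 28 were called higher, 1 lower and 30 neither, where 12% of all genes were called higher and 17.5% lower. Their median was 0.82, against -0.03 for all genes. By size of change MX1 ranked 5th and MX2 51st of 60. The 1 gene called lower was TRIM14 (-0.38), named after its value was seen. PARP12 (3.36 ± 0.115 to 9.29 and 9.47 FPKM) and IFI35 (10.98 ± 1.84 to 36.1 and 27.2 FPKM) rose in both treated libraries, as did the helicase gene HELZ2 (1.47 ± 0.356 to 8.40 and 4.60 FPKM). The number called higher was 52 without GSK343 replicate 2, 22 without replicate 1, and 16 and 17 without DMSO replicate 1 and 2 of Pfeiffer.

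MX2 stood at the low end of these genes in RL. Against Pfeiffer 20 of the 59 were higher in RL, 13 lower and 26 neither, with a median of 0.18, and MX2 had the largest decrease of the 60, MX1 ranking 47th from the highest. Against KARPAS-422 4 were higher (IFITM2, BST2, TRIM14 and BATF2, named after their values were seen), 46 lower and 9 neither, with a median of -1.88, where MX1 ranked 57th and MX2 59th of 60. Between KARPAS-422 and Pfeiffer 45 were higher in KARPAS-422, 10 lower and 4 neither (median 2.13), with MX1 at rank 18 and MX2 at rank 54 of 60. These counts are read against the shares of all tested genes called in either direction. Those were 74.3% for RL against Pfeiffer, 66.8% for RL against KARPAS-422 and 83% for KARPAS-422 against Pfeiffer.

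Of 10 genes listed as inhibitors or regulators of the pathway, 3 rose and 4 fell with CPI-169, counts near the shares over all genes (26.9% and 27.3%). USP18, which blocks signalling at IFNAR2, rose from 3.97 ± 0.604 to 58.2 ± 3.89 FPKM, a log2 difference of 3.58 that was larger than that of MX2. SOCS1, which inhibits JAK kinases, rose from 4.92 ± 0.442 to 11.6 ± 0.542 FPKM, and PIAS1, an inhibitor of STAT signalling, fell from 42.5 ± 2.32 to 23.6 ± 1.15 FPKM. The other calls, named after their values were seen, were STAT3 (0.65 on the log2 scale), PIAS4 (-0.62), PTPN6 (-0.49) and IRF2 (-0.48). With GSK343 3 of 10 rose and 0 fell, where 12% and 17.5% of all genes did. SOCS1 went from 1.39 ± 0.247 to 3.99 and 2.80 FPKM (0.67 without GSK343 replicate 1 and 1.06 without replicate 2), and SOCS3 from 10.6 ± 0.0178 to 12.9 and 14.7 FPKM (call lost without DMSO replicate 1 of Pfeiffer, limma adjusted p = 0.0556). STAT3, which carries the interleukin 10 and interleukin 6 signal, went from 62.2 ± 2.81 to 70.1 and 116 FPKM, a call (adjusted p = 0.0451, limma) lost without any 1 of 11 libraries (up to 0.189). USP18 was 1.48 ± 0.149 FPKM with DMSO and 7.08 and 1.65 FPKM with GSK343 and did not pass (log2 difference 0.90, limma adjusted p = 0.0960). Its difference was 1.70 without GSK343 replicate 2, where it passed (adjusted p = 4.94e-05), and 0.10 without replicate 1 (adjusted p = 0.651).

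Of 21 relatives of MX1 and MX2 in the dynamin superfamily, 13 were tested, and 3 rose and 3 fell with CPI-169 (median 0.00 on the log2 scale), near the shares over all genes (26.9% and 27.3%). Among them GBP3, an interferon-inducible guanylate-binding protein gene, went from 0.316 ± 0.0615 to 1.45 ± 0.484 FPKM, and ATL1, an atlastin gene of endoplasmic reticulum fusion, from 0.228 ± 0.0826 to 1.42 ± 0.138 FPKM. GBP3 reached 1 FPKM only with CPI-169, and ATL1 only in libraries treated with an inhibitor. Both were thus tested only through libraries where they were high, and their place among the genes that rose is in part built in. MFN2, a mitofusin gene, fell from 24.7 ± 0.439 to 17.3 ± 0.487 FPKM. The other calls, named after their values were seen, were the dynamin genes DNM1 (0.65) and DNM2 (-0.43) and ATL2 (-0.28). By its fold and log2 difference DNM1 also stayed under 1 FPKM with DMSO in every line. It was thus tested only through libraries treated with an inhibitor. Its place among the genes that rose, with either inhibitor, is likewise in part built in. On the log2(FPKM + 1) scale MX1 and MX2 had larger increases than all 13. By fold of mean FPKM MX2 did (6.86), but ATL1 (6.23), DNM1 (5.36) and GBP3 (4.59), all at low levels, exceeded MX1 (2.96). With GSK343 3 rose and 2 fell, where 12% and 17.5% of all genes did. DNM1 (0.58) and EHD4 (0.49), named after their values were seen, were among those that rose, and were not called without GSK343 replicate 2 (0.30, limma adjusted p = 0.185) and replicate 1 (0.20, adjusted p = 0.124) respectively. EHD3, an endocytic recycling ATPase gene, rose from 1.22 ± 0.107 to 3.79 and 4.34 FPKM, ATL2 fell by 0.49 and the mitochondrial fission gene DNM1L by 0.40 on the log2 scale, the last without a call when DMSO replicate 1 of Pfeiffer was left out (limma adjusted p = 0.0838). MX1 had a larger difference than all 13 there and MX2 ranked 4th of 14.

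EZH2 mRNA, whose product is the target of both compounds, does not report inhibition of the enzyme. It averaged 47.4 ± 2.61 FPKM with DMSO and 41.0 ± 0.540 FPKM with CPI-169 and was not called (limma, adjusted p = 0.175; 0.00526 at the lowest, without a GSK343 library). In Pfeiffer it fell from 31.2 ± 0.555 to 13.8 and 20.9 FPKM (log2 difference -0.84, limma adjusted p = 0.00169; -0.56 without GSK343 replicate 1 and -1.12 without replicate 2), and in RL it was 65.7 ± 0.601 FPKM. Of 6 PRC2 core genes, 1 rose and 1 fell with CPI-169, a smaller share than the 54.2% called over all genes. RBBP4, a histone-binding subunit gene, rose from 43.7 ± 1.93 to 78.9 ± 2.99 FPKM, and EED, which reads the methyl mark, fell from 70.3 ± 4.24 to 52.1 ± 1.68 FPKM. With GSK343 0 rose and 5 fell, where 17.5% of all genes fell: EZH2, EED (-0.45), RBBP7 (-0.49), RBBP4 (-0.25) and SUZ12 (-0.35), the last named after its value was seen. The call of EED was lost without DMSO replicate 1 or 2 of Pfeiffer and that of RBBP4 without any 1 of 5 libraries, with adjusted p up to 0.102 and 0.106 (limma). SUZ12 was not called without GSK343 replicate 1 (-0.16, adjusted p = 0.119).

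Around MX1 and MX2 little else was expressed. Of the 19 other rows whose models start within 500 kb on chromosome 21, 18 had no library at 1 FPKM, among them the protein-coding genes TMPRSS2 (at most 0.240 FPKM), FAM3B (0.346 FPKM) and RIPK4 (0.816 FPKM). The 1 row tested was BACE2, which encodes a beta-secretase (42539727 to 42648524). In KARPAS-422 it reached at most 0.0132 FPKM with DMSO and 0.0688 FPKM with CPI-169 and was not called (limma, adjusted p = 0.904). In Pfeiffer it had 0.579 and 0.733 FPKM with DMSO and 1.26 to 2.41 FPKM with GSK343, and rose (log2 difference 0.75, SE 0.152, limma adjusted p = 0.00463). The difference was 1.04 without GSK343 replicate 1 and 0.45 without replicate 2. BACE2 reached 1 FPKM in the GSK343 libraries only, so it was tested only through the group where it was high. That it is the 1 neighbour tested, and called higher there, is in part built in by the filter.

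The genes whose values over the 12 libraries were most like those of MX1 and of MX2 were different ones. Pearson's r on log2(FPKM + 1) is given as a description, since the libraries form 5 groups of 3 lines. For MX1 the highest included EPSTI1 (r = 0.992), the ADP-ribosyltransferase gene PARP10 (0.982), the interferon regulatory factor gene IRF7 (0.980), IRF9 (0.979), SAMD9L (0.973), DDX60 (0.973) and the peptide transporter gene TAP1 (0.966). Of these 5 (EPSTI1, IRF7, SAMD9L, DDX60 and TAP1) belong to the list of other interferon-stimulated genes, and IRF9 to the signalling list. Without GSK343 replicate 1 the r of EPSTI1 was 0.993.

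For MX2 the 8 highest were ZBED5-AS1 (r = 0.992), CCDC112 (0.990), ACCS (0.988), ARFGAP3 (0.984), which encodes a GTPase-activating protein for ARF1, the butyrophilin gene BTN3A1 (0.982), the B cell tetraspanin gene CD37 (0.981), the exonuclease gene EXD2 (0.980) and ZNF514 (0.980). None of the 8 (0 of 8) belongs to the list of other interferon-stimulated genes. All 8 had their lowest mean in RL, but to different degrees. Their choice by r with MX2, itself lowest in RL, favours that. KARPAS-422 with DMSO had 2.17 times the RL mean of ARFGAP3 and 2.34 times that of CD37 (342 ± 11.7 and 146 ± 1.30 FPKM), against 20.5 times for CCDC112 and 26.8 times for MX2. CCDC112 was 4.03 ± 0.511 FPKM in KARPAS-422 with DMSO, 10.9 ± 0.973 FPKM with CPI-169, 3.98 ± 0.281 FPKM in Pfeiffer with DMSO and 0.197 ± 0.0315 FPKM in RL. ACCS was 7.70 ± 0.716, 26.0 ± 0.884 and 7.90 ± 0.341 FPKM in the first 3 of these groups and is listed at 0 in both RL libraries. With GSK343, ACCS rose to 11.8 and 15.6 FPKM (log2 difference 0.71, limma adjusted p = 0.00196) and CD37 from 368 ± 10.9 to 458 and 522 FPKM (0.41, adjusted p = 0.0157). Without GSK343 replicate 1 and 2 in turn, the log2 difference was 0.90 and 0.52 for ACCS and 0.50 and 0.32 for CD37. ZBED5-AS1 is an antisense gene, and its values are uncertain where it overlaps other genes. MX1 and MX2 correlated with each other at r = 0.739, with and without GSK343 replicate 1.

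**Figure D4:**
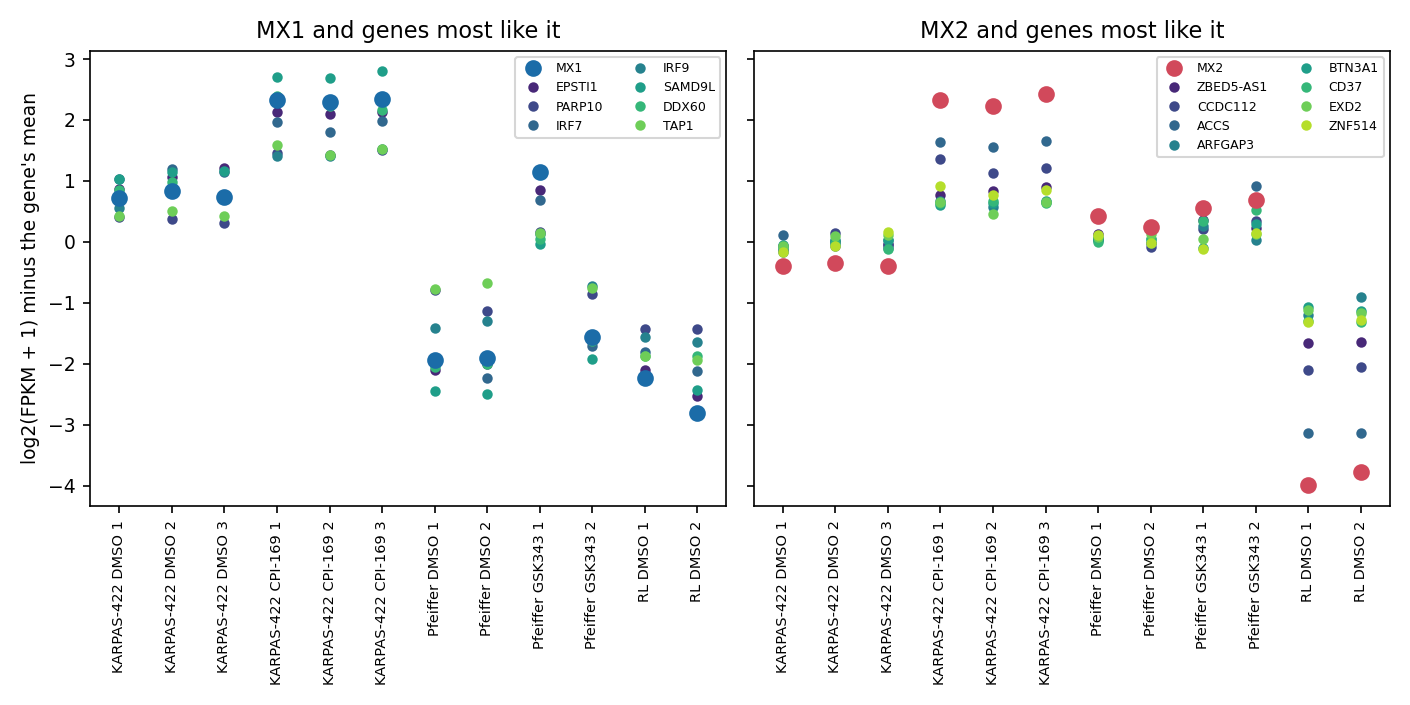
Each point is the log2(FPKM + 1) of a gene in a library minus its mean over the 12 libraries, for MX1 (left) and MX2 (right), each with the genes named as most like it. The MX1 group separates the GSK343 libraries from each other, whereas in the MX2 group the RL libraries are lowest and the GSK343 libraries lie closer to each other, with ACCS and CD37 above their DMSO values. The genes of each panel were chosen by their r with MX1 or MX2 over these same libraries, which favours a shared pattern within each panel.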

How the data were processed

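RNA of 12 libraries in 5 groups was measured by RNA sequencing. The authors deposited 1 table of FPKM values (fragments per kilobase of transcript, scaled by library size) for 63129 Ensembl gene rows; the submitters' processing notes name TopHat 1.4.1, Cufflinks and hg19. Not given in the sources used here are the Cufflinks version, annotation release, library kit and strand handling. FPKM depends on the other transcripts of a library, and a 0 can be a failed estimate (37 of 37 mitochondrial genes are listed at 0). No pair of libraries was identical (0 pairs). Columns were matched to samples by title, and groups come from the labels.

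Rows with a missing value (77) were left out, and genes that reached 1 FPKM in 2 or more libraries kept (18731). Values were analysed as log2(FPKM + 1) with limma 3.58.1 in R 4.3.3: 5 groups fitted together, a trend of variance with intensity, 7 residual degrees of freedom and 3.45 prior ones, Benjamini-Hochberg adjustment over all genes tested, two-sided, threshold 0.05. Groups of 2 or 3 libraries share 1 spread per gene, and a split between the GSK343 libraries widens that gene's standard error throughout. The ratio of MX1 to MX2 was tested by exact permutation of libraries. The fit was tested on simulated data that had 1 spread per gene in all groups. That test does not cover groups that differ in spread, as those of MX1 do. Symbols with several rows used the primary chromosome row with the highest mean. Alternatives were another pseudocount (0.1), no filter, a minimum of 5 FPKM, quantile and median scaling, only the groups compared, no trend, array weights, a replicate block and leaving out each library.

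MX1, MX2 and all gene lists were chosen with earlier results of these data known. Named genes were MX1 and MX2; genes starting within 500 kb; all interferon signalling genes; per other list and treatment the 3 with the smallest adjusted p; EZH2; and the 8 genes of highest r with each member. A gene of these lists is counted in the list totals but is not reported here.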

Additional observations from a re-analysis of the deposited data

Results flagged for a closer look

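The effect of inhibition on MX2 differed between the treated lines by a test of the difference itself. The difference from DMSO in log2(FPKM + 1) of MX2 was 2.43 larger with CPI-169 in KARPAS-422 than with GSK343 in Pfeiffer (SE 0.132, limma interaction with Benjamini-Hochberg adjustment, adjusted p = 1.17e-06; higher in 3 of 3 CPI-169 and in 2 of 2 GSK343 libraries than in their DMSO libraries). The differences themselves were 2.71, which passed the test, and 0.28, which did not. Line and compound cannot be told apart in this comparison.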

How the results depend on the processing

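Over 21 alternatives MX2 kept its direction and call with CPI-169 (2.64 to 3.01), in the difference between inhibitor effects (2.32 to 2.60), in RL against KARPAS-422 (-4.57 to -3.14) and Pfeiffer (-5.32 to -3.89) and between KARPAS-422 and Pfeiffer (-0.80 to -0.63), as did MX1 in RL against KARPAS-422 (-3.60 to -2.99) and KARPAS-422 against Pfeiffer (2.65 to 2.97). MX1 with CPI-169 was 1.56 without the filter (limma adjusted p = 0.0745) and 1.54 to 1.60 when a library was left out. MX1 with GSK343 passed with a minimum of 5 FPKM (1.72, adjusted p = 0.0499), with quantile normalization (1.63, 0.0419) and with the replicate block (1.72, 0.0487), and ran from 0.37 to 3.07 with a library left out. MX2 with GSK343 passed with quantile normalization (0.41) and median scaling (0.33) and ran from 0.19 to 0.37 with a library left out. For MX1 the difference between inhibitor effects was 0.12 with quantile normalization, the opposite sign (adjusted p = 0.907), and -1.51 to 1.19 with a library left out. MX1 in RL against Pfeiffer was -0.59 and passed with these groups alone (0.0385) and with array weights (0.0385), and ran from -0.88 to -0.31 with a library left out. The count of other interferon-stimulated genes called higher with GSK343, 28, was 17 without the filter, 13 with array weights, 0 with Pfeiffer fitted alone (limma; 18 of 59 at an unadjusted p under 0.05) and 16 to 52 with a library left out. The change of the MX1 to MX2 log2 ratio in KARPAS-422 was -1.26 with quantile normalization. Except where a library was left out or fewer genes or groups were fitted, the cause was not tested. Same-numbered libraries did not deviate together in KARPAS-422 (r of -0.15, -0.25 and 0.16), and Pfeiffer has only 2 pairs (r = 0.14), so the numbers were not taken as pairs; the replicate block changed no other call. FPKM without read counts gives no counting error, which limits MX2 in RL most.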
